A study of Mus musculus with 4 samples.

Results

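Retinoic acid is a vitamin A derivative that acts as a ligand of nuclear receptors. Cells oxidise retinol to retinaldehyde and then to retinoic acid, small cytoplasmic proteins carry it, and cytochrome P450 enzymes of the Cyp26 family break it down. In the nucleus a retinoic acid receptor (RAR) pairs with a retinoid X receptor (RXR) on direct repeats of a short DNA motif, holding corepressors without ligand and recruiting coactivators with it. In the embryonic mouse forebrain the meninges are a known source of retinoic acid for the cortex, and Rarb and Rxrg are known for their expression in the striatum.

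The 10 genes described here are the receptors Rara, Rarb, Rarg, Rxra, Rxrb and Rxrg, the synthesis enzyme Aldh1a2, the binding proteins Crabp1 and Crabp2, and the breakdown enzyme Cyp26b1. They were taken by symbol from a count table of 45706 Ensembl genes, and all 10 had at least 10 counts over the libraries, as had 20991 genes in all. The samples are 4 replicate RNA-seq libraries of medial basal radial glial cells from mouse neocortex at stage E18.5, of strain C57BL/6JOlaHsd and genotype Tubb-GFP/+; the sample titles also name the dye DiI. Basal radial glia are neural progenitors without contact to the ventricle. There is 1 group and no control, so no gene can be set against another condition. Nothing in the labels ties a library to its own animal, and the p-values below rest only on the spread between these libraries, which may be technical. For gene pairs, limma shares that spread over all genes set against the same gene. Its SE and p-value are therefore not those of the pair alone.

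Levels are given as TPM, a transcript abundance scaled for gene length and library size; the deposited counts were divided anew by the length of all exons of a gene together. The libraries held between 26540656 and 34837657 counts, and the Spearman correlation across genes between any pair of them lay between 0.963 and 0.969, as a description. All 9 radial glia markers, all 7 intermediate progenitor markers and all 9 neuron markers lay above 1 TPM, with summed levels of 6045 to 7285, 1284 to 1456 and 9687 to 10789 TPM. Of 8 basal radial glia markers 7 lay above 1 TPM, with summed levels of 519 to 700 TPM. Some markers of other cells lay above 1 TPM too, as did 65.9% of all genes tested and 75.7% of protein-coding genes. They were 8 of 10 interneuron markers (summed 215 to 367 TPM), 6 of 9 microglia markers (25 to 51.6 TPM) and 6 of 7 erythroid markers (2377 to 4203 TPM). Further lists had 6 of 13 striatal neuron markers (31.6 to 35.6 TPM), 2 of 11 meningeal markers (10.8 to 14.6 TPM) and 2 of 9 endothelial markers (4.65 to 7.32 TPM) above it. The last had 2 of 5 mural (7.75 to 11.1 TPM), 1 of 6 Cajal-Retzius (46.5 to 60.4 TPM) and 1 of 6 choroid plexus markers (53.3 to 83.1 TPM). Below 1 TPM lay 5 endothelial, 5 meningeal, 4 choroid plexus, 3 Cajal-Retzius, 2 striatal, 1 interneuron, 1 mural and 1 erythroid marker. A marker above 1 TPM does not by itself show that its cell type was present. Of 14 genes typical of other organs, 1 did (Krt10; summed 42 to 46.9 TPM). The libraries therefore do not show which cells held a transcript, and a transcript carried by fewer cells cannot be told apart from less of it in each cell.

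Of the 10 retinoic acid genes, 9 lay above 1 TPM and none lay below it by edgeR's quasi-likelihood test at an adjusted p of 0.05; Aldh1a2 was not called. Of all 20991 genes tested, 65.9% lay above 1 TPM and 12.1% below it, and of the 15401 protein-coding genes 75.7% and 11.5%, so a majority above this level is common to most genes. The median of the 10 genes was 4.22 TPM, against 4.79 TPM over all genes tested and 9.0 TPM over protein-coding genes. Rxrb, the highest, exceeded 61.4% of the genes tested, and Aldh1a2, the lowest, exceeded 12.9%. The summed level of the 10 genes was 49.8, 45.5, 45 and 41.5 TPM in replicates 1 to 4, from 1236 to 1713 counts per library.

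**Figure D1:**
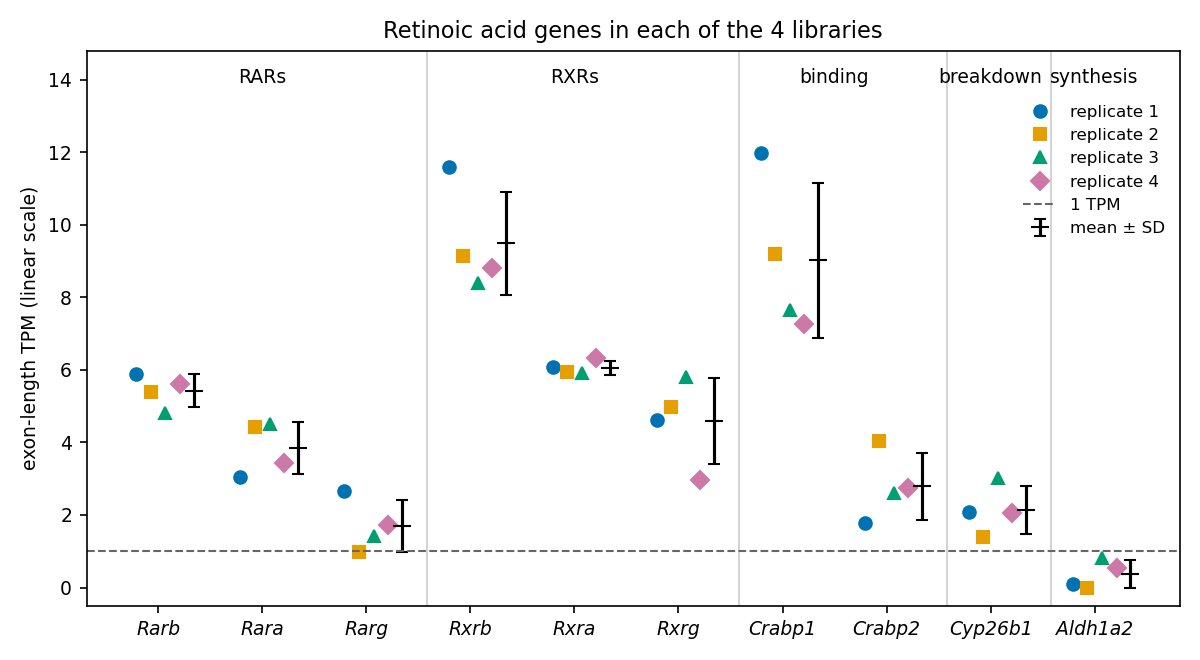
Level of each retinoic acid gene (exon-length TPM, linear axis) in the 4 libraries, one symbol per replicate, with the mean and SD beside them and genes grouped by role; the dashed line is 1 TPM. Rxrb and Crabp1 are the highest at means of 9.49 and 9.02 TPM, and Aldh1a2 is the only gene with every library under the line.

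Among the RARs, Rarb had the highest mean level, Rara the next and Rarg the lowest. Rarb (ENSMUSG00000017491; GRCm38 chromosome 14, 16430839 to 16819156, minus strand) stood at 5.88, 5.38, 4.82 and 5.63 TPM in replicates 1 to 4, a mean of 5.43 ± 0.451 TPM (SD, n = 4). Its 4 values lie close together, with a coefficient of variation of 8.30%, against 6.07% from counting error alone. Its log2 level of 2.44 ± 0.085 (SE) lay above 1 TPM (edgeR adjusted p = 4.93e-10).

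The Rarb gene is itself a textbook target of retinoic acid, and the element through which it responds can be read in its promoter, which is why the sequence is shown. RefSeq's window of 250 bases before to 50 after the start (GRCm38.p6, chr14:16575427-16575726, minus strand) reads as follows, with the hexamers of the direct repeat described next in capitals and any hexamer outside it in lower case.
Rarb promoter: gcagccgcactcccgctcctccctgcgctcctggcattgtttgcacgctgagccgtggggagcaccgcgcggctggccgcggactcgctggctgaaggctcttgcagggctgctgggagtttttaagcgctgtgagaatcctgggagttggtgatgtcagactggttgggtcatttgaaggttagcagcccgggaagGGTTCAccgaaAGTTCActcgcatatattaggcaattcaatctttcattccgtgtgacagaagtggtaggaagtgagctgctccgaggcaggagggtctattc
The search was for any of the hexamers AGGTCA or AGTTCA or GGGTCA or GGTTCA followed by any of them in the same direction after 5 bases (the repeat named DR5), on both strands. In Rarb it lies from 53 to 37 bases before the start. This window lies inside the annotated Rarb gene, whose minus-strand span begins at base 16819156, so the start is not its outermost one. The Rarb counts pool all 7 annotated transcripts of the gene. Of 27025 genes with a window of this length, 31 (0.115%) hold such a repeat. Of the retinoic acid genes, 9 have a window in the table and only Rarb holds the repeat. Together with the 67 other pathway genes described below, 61 genes have a window, so some of the others were not searched. Among those searched, only Cyp26a1, which encodes another enzyme of retinoic acid breakdown, holds the repeat. The elements of both genes, hexamers in capitals, read:
Rarb: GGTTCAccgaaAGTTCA
Cyp26a1: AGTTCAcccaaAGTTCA
The Cyp26a1 repeat lies on the opposite strand, from 32 to 16 bases before the start. The same hexamers spaced by 1 or 2 bases (DR1, DR2) were found in 0.263% and 0.311% of genes and in none of the 9. Cyp26a1 was at 0, 0.493, 0.262 and 0.122 TPM in replicates 1 to 4, below 1 TPM (log2 level -2.16; edgeR adjusted p = 0.0468), a call that was lost without any single replicate, while Rarb, with a like element, lay above it. A sequence match does not show that a receptor was bound.

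Rara (ENSMUSG00000037992; chromosome 11, 98927818 to 98974942), the most broadly expressed RAR in the embryo, stood at 3.05, 4.42, 4.51 and 3.42 TPM, a mean of 3.85 ± 0.726 TPM (SD, n = 4). Replicates 2 and 3 were high and replicates 1 and 4 low, and its variation of 18.9% exceeded the 7.86% of counting error. Rarg (ENSMUSG00000001288; chromosome 15, 102234938 to 102257517), known from skin and cartilage, stood at 2.68, 0.980, 1.42 and 1.74 TPM, a mean of 1.70 ± 0.719 TPM (SD, n = 4). Replicate 1 was highest, and its exact Poisson 95% interval of 2.18 to 3.25 TPM lay above those of replicate 2 (0.720 to 1.30 TPM) and replicate 3 (1.08 to 1.83 TPM). Rarg lay above 1 TPM by 0.76 ± 0.23 (log2, SE; edgeR adjusted p = 0.0115), but not without replicate 1 (log2 level 0.46; edgeR adjusted p = 0.124).

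Within libraries, Rarb exceeded Rarg in 4 of 4, by 1.70 ± 0.41 on the log2(TPM + 0.1) scale (SE; limma adjusted p = 5.63e-05), and Rara exceeded Rarg in 4 of 4 by 1.20 ± 0.41 (limma adjusted p = 0.00479). Rarb was higher than Rara in 4 of 4 libraries and their ranges did not overlap, yet the difference of 0.50 ± 0.22 missed the threshold (limma adjusted p = 0.0636). It was called with the longest transcript as length (0.89, limma adjusted p = 0.00462) and with no length correction (0.77, limma adjusted p = 0.00708). Adding 1 TPM instead of 0.1 TPM gave a call too (0.42, limma adjusted p = 0.0253). With the whole gene span as length the ratio turned to -1.77 (limma adjusted p = 4.5e-05). Rarb made up 50.7%, 49.9%, 44.9% and 52.2% of the summed RAR level, Rara 26.3% to 41.9% and Rarg 9.09% to 23.1%. The sum of the RARs was 11.6, 10.8, 10.7 and 10.8 TPM, so it varied less between libraries than Rara or Rarg did.

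The Rarb level depends on what length its counts are divided by. Of its 5265 exonic bases, 2020 (38.4%) lie opposite exons of the neighbours Top2b and Gm48162, and Top2b, a topoisomerase gene that ends where the last Rarb exon lies, stood at 32.2 ± 5.12 TPM (SD, n = 4). The counts show how such bases were treated: of 54 antisense genes whose every exonic base lies opposite other exons, 1 had a count, against 632 of 891 antisense genes that share none. For protein-coding genes these numbers were 9 of 35 and 11330 of 15147. Genes made up of bases shared with the opposite strand thus mostly had no count. With shared bases left out of every gene's length, an alternative chosen after seeing the data, Rarb was fitted at 8.15 TPM, against 5.43 TPM by merged exons. It then exceeded Rara by 1.19 on the log2 scale (limma adjusted p = 0.00104). None of the other 9 genes shares an exonic base with the opposite strand.

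**Figure D2:**
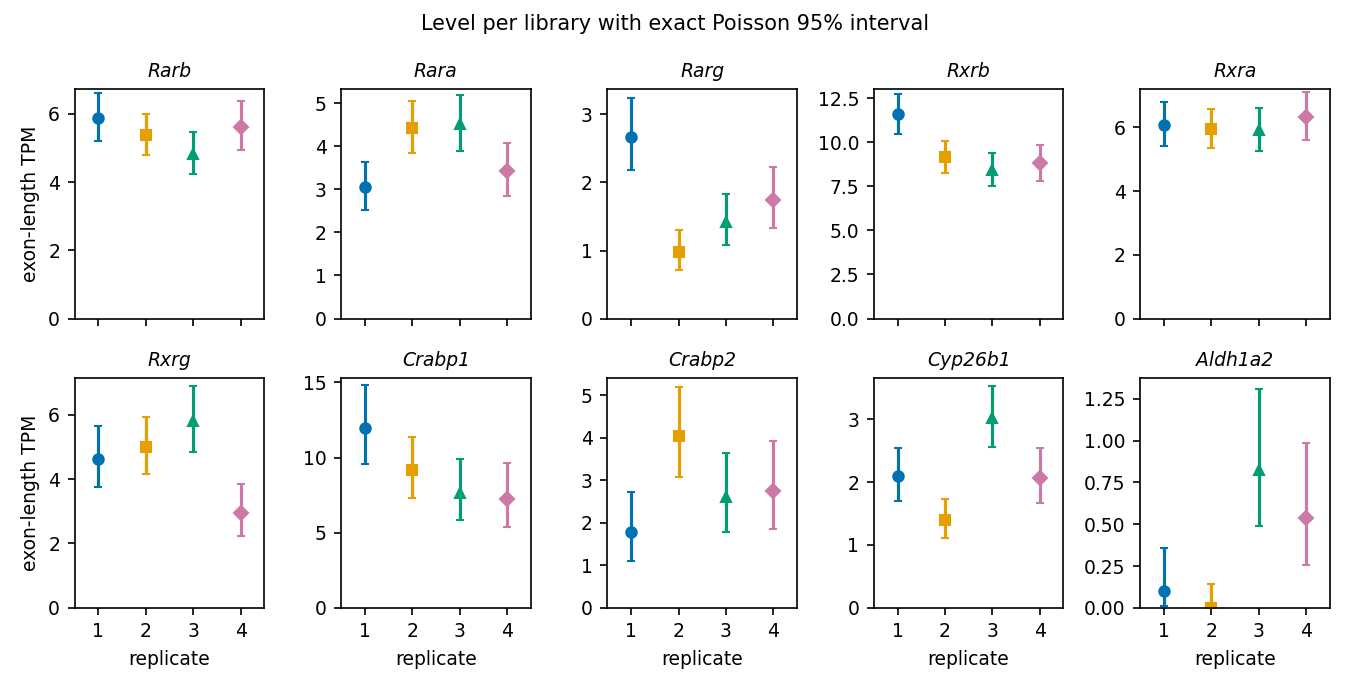
Exon-length TPM of each gene by replicate (linear axes from 0, scaled per gene), with exact Poisson 95% intervals that cover counting error only. For Rxra, Rarb and Crabp1 the intervals of all libraries overlap, whereas the other 7 genes each have libraries whose intervals do not.

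The RXRs, which also pair with thyroid hormone, vitamin D and lipid-sensing receptors, had a higher summed level than the RARs in each library. Rxrb (ENSMUSG00000039656; chromosome 17, 34031812 to 34038399) stood at 11.6, 9.15, 8.41 and 8.80 TPM, a mean of 9.49 ± 1.43 TPM (SD, n = 4), with replicate 1 above the rest. Rxra (ENSMUSG00000015846; chromosome 2, 27676440 to 27762957) stood at 6.08, 5.94, 5.91 and 6.33 TPM, a mean of 6.06 ± 0.194 TPM. It was the steadiest of the 10 genes, its variation of 3.21% lying under the 5.64% of counting error. Rxrg (ENSMUSG00000015843; chromosome 1, 167598384 to 167639623), the most restricted RXR, known from striatum, pituitary and muscle, stood at 4.62, 4.99, 5.80 and 2.96 TPM, a mean of 4.59 ± 1.20 TPM. Replicate 4 was the low library for Rxrg, its Poisson interval of 2.24 to 3.84 TPM lying below those of replicate 2 (4.17 to 5.93 TPM) and replicate 3 (4.84 to 6.90 TPM).

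Rxrb exceeded Rxra in 4 of 4 libraries, by 0.63 ± 0.11 on the log2 scale (SE; limma adjusted p = 0.00388), and Rxrg in 4 of 4, by 1.06 ± 0.31 (limma adjusted p = 0.00323). Rxra exceeded Rxrg in 4 of 4 libraries without reaching the threshold (0.43 ± 0.31; limma adjusted p = 0.190). Rxrb made up 41.8% to 52.0% of the summed RXR level, Rxra 27.3% to 35% and Rxrg 16.4% to 28.8%. The summed RXR level was 22.3, 20.1, 20.1 and 18.1 TPM, against 11.6, 10.8, 10.7 and 10.8 TPM for the summed RARs. RXR exceeded RAR in 4 of 4 libraries, 1.83-fold or 0.872 ± 0.0862 on the log2 scale (SD, n = 4; exact two-sided sign-flip permutation p = 0.13, the smallest that 4 libraries allow). With the bases shared between genes left out of the length, the ratio was 0.486 ± 0.0985 (log2, SD, n = 4).

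The striatal marker list is given beside Rarb and Rxrg. Its summed level was 35.6, 31.6, 34.2 and 35.5 TPM in replicates 1 to 4, with Pde10a at 10.8 ± 0.704 TPM and the enkephalin precursor gene Penk at 7.88 ± 1.84 TPM (SD, n = 4) its highest members. Of the 13 striatal markers 6 lay above 1 TPM, 2 below it and 5 were not called, where 75.7% of protein-coding genes tested lay above. The D1 dopamine receptor gene Drd1 was at 3.25 to 5.73 TPM, the D2 receptor gene Drd2 at 0.105 to 0.572 TPM and the striatal transcription factor gene Six3 at 0 to 0.156 TPM; the last 3 were chosen after their values were seen. In the same libraries Rarb stood at 5.88, 5.38, 4.82 and 5.63 TPM and Rxrg at 4.62, 4.99, 5.80 and 2.96 TPM. The part of striatal RNA in the Rarb and Rxrg levels was not tested.

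The binding proteins were unequal. Crabp1 (ENSMUSG00000032291; chromosome 9, 54764748 to 54773110), which carries retinoic acid to breakdown enzymes, stood at 12, 9.19, 7.66 and 7.26 TPM, a mean of 9.02 ± 2.14 TPM (SD, n = 4). Replicate 1 was highest and replicate 4 lowest. Crabp2 (ENSMUSG00000004885; chromosome 3, 87948666 to 87953376), which delivers retinoic acid to nuclear RARs, stood at 1.78, 4.03, 2.60 and 2.75 TPM, a mean of 2.79 ± 0.933 TPM. Here replicate 2 was highest and replicate 1 lowest, with Poisson intervals of 3.08 to 5.19 and 1.10 to 2.71 TPM. Crabp1 exceeded Crabp2 in 4 of 4 libraries and their ranges did not overlap, with a log2 ratio of 1.69 ± 0.39 (SE; limma adjusted p = 2.62e-05), 3.22-fold. On the whole gene span, the scale of the deposited TPM, the difference was 0.17 (limma adjusted p = 0.691).

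Of the enzyme genes of the set, Cyp26b1 had more transcript than Aldh1a2. Cyp26b1 (ENSMUSG00000063415; chromosome 6, 84571414 to 84593908), which oxidises retinoic acid to inactive products, stood at 2.09, 1.39, 3.01 and 2.06 TPM, a mean of 2.14 ± 0.666 TPM (SD, n = 4), highest in replicate 3 and lowest in replicate 2. It lay above 1 TPM by 1.10 ± 0.17 (log2, SE; edgeR adjusted p = 0.000205). Aldh1a2 (ENSMUSG00000013584; chromosome 9, 71215789 to 71296243), the retinaldehyde dehydrogenase of the meninges, had 2, 0, 18 and 10 counts in replicates 1 to 4, or 0.0987, 0, 0.828 and 0.536 TPM. Replicates 1 and 2 were low and replicates 3 and 4 high. The count of 0 in replicate 2 allows up to 0.118 TPM (3 counts), below the Poisson intervals of replicate 3 (0.490 to 1.31 TPM) and replicate 4 (0.257 to 0.986 TPM). Its level was not called different from 1 TPM (log2 level -1.46 ± 0.86, SE; edgeR adjusted p = 0.142). Cyp26b1 exceeded Aldh1a2 in 4 of 4 libraries, by 2.72 ± 0.78 on the log2(TPM + 0.1) scale (SE; limma adjusted p = 0.00082).

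Aldh1a2 and Crabp2 are both known from the meninges, and the meningeal marker list is given beside them. Its summed level was 11.1, 14.6, 13.6 and 10.8 TPM in replicates 1 to 4; Islr was at 5.68 ± 1.35 TPM and Lum at 1.98 ± 0.231 TPM (SD, n = 4), and Slc22a6 had no count. Of the 11 markers 5 lay below 1 TPM, among them the collagen gene Col1a1 (0.381 to 0.541 TPM) and the meningeal transcription factor gene Foxc1 (0.0152 to 0.249 TPM), both chosen after their values were seen. Replicate 2, which had no Aldh1a2 count, had the highest Crabp2 level, the highest summed meningeal level and the highest summed erythroid level (4203 TPM, against 2377 to 2683 TPM in the others). The summed interneuron (367 TPM) and Cajal-Retzius (60.4 TPM) levels were also highest in replicate 2, and the remaining marker lists were highest in other replicates. The part of meningeal or blood RNA in the Crabp2 and Aldh1a2 values was not tested.

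Ordered by mean level, the genes ran Rxrb, Crabp1, Rxra, Rarb, Rxrg, Rara, Crabp2, Cyp26b1, Rarg and Aldh1a2. Of the 45 pairs, 34 were called different within libraries by limma. In the same fits 72.9% to 90.7% of all genes were called different from the gene they were set against (86.7% for Crabp1, 90.7% for Rxra, 89.8% for Rarb, 85.2% for Rxrg, 87.4% for Rara, 83.7% for Crabp2, 85.1% for Cyp26b1, 82.6% for Rarg and 72.9% for Aldh1a2). Of the 9 neighbours in the order, 2 were called. Crabp1 exceeded Rxra by 0.54 ± 0.15 (log2, SE; limma adjusted p = 0.0232), a call that was lost without replicate 1 (0.40; adjusted p = 0.050), without replicate 2 (0.51; adjusted p = 0.0750) and with the longest transcript as length (0.38; adjusted p = 0.0626), and that turned round with no length correction (-2.17). Rarg exceeded Aldh1a2 by 2.37 ± 0.78 (limma adjusted p = 0.00375), lost without replicate 1 (1.89; adjusted p = 0.0905). The other 7 neighbours were not called. Rxrb was higher than Crabp1 in 2 of 4 libraries, but was called higher with the longest transcript as length (0.68; limma adjusted p = 0.0152). Rxra was higher than Rarb in 4 of 4 with ranges that did not overlap (0.16, SD 0.0991), and Rara higher than Crabp2 in 4 of 4 (0.49, SD 0.322); missing limma's threshold does not show equal levels. The Rxra over Rarb ratio turned to -0.53 with shared bases left out (limma adjusted p = 0.00414) and to -0.43 with the longest transcript (limma adjusted p = 0.00868). Rarb was higher than Rxrg in 3 of 4, Rxrg higher than Rara in 3, Crabp2 higher than Cyp26b1 in 2 and Cyp26b1 higher than Rarg in 3.

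**Figure D3:**
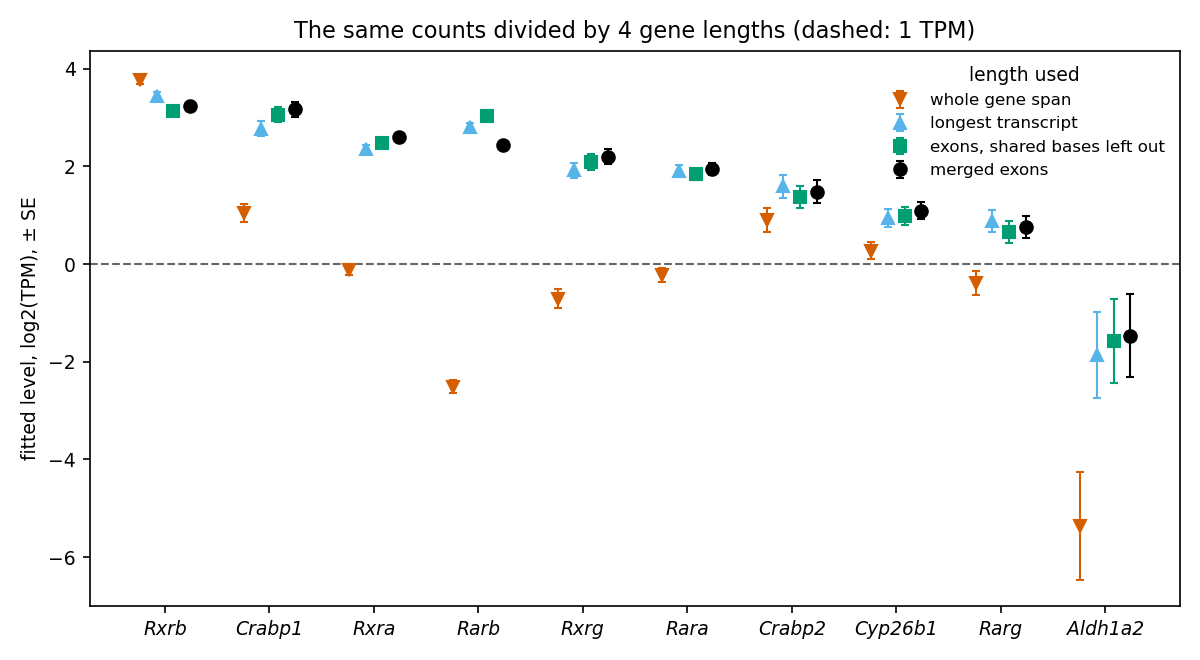
Fitted level of each gene on a log2 axis (± SE of the edgeR fit over 4 libraries) when the same counts are divided by the whole gene span, the longest transcript, the exons without shared bases, or the merged exons; the dashed line is 1 TPM. Rarb is at 0.176 TPM by gene span, against 5.43 TPM by merged exons, and Rxrb becomes the highest by a wide margin at 13.7 TPM.

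All 10 genes are in the deposited TPM table, where they take another order. Dividing the deposited counts by the deposited TPM gives back the length that was used: of 9407 genes, 95% came within 0.01 (log2) of their full span with introns, and 0.83% within that of their merged exons. In the deposited TPM table, Rxrb stood at 20.1 ± 3.01 TPM (SD, n = 4), Crabp1 at 3.04 ± 0.717 and Crabp2 at 2.75 ± 0.923 TPM. There Rarb was at 0.259 ± 0.0210 TPM, lower than every other gene of the set but Aldh1a2 at 0.0362 ± 0.0382 TPM. The gene span is 388318 bases for Rarb and 6588 bases for Rxrb, while their exons cover 5265 and 3973 bases. Tested on the span, 3 of the 10 genes lay above 1 TPM (Rxrb, Crabp1, Crabp2) and 3 below it (Rarb, Rxrg, Aldh1a2). Of all genes 12620 then lay above and 5141 below.

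The other genes of the pathway were taken from 8 lists with 67 different genes. Of these, 14 had under 10 counts and were not tested. Of the 53 tested, 37 (69.8%) lay above 1 TPM, 8 (15.1%) below it and 8 were not called. Of all genes tested 65.9% lay above and 12.1% below, and of protein-coding genes 75.7% and 11.5%. The median over the 53 genes was 6.95 TPM, above the 4.79 TPM of all genes tested and below the 9.0 TPM of protein-coding genes tested. Over all 67 pathway genes, the untested included, the median was 3.61 TPM. Both shares are near the background.

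Among the genes of uptake and storage, Lrat, which esterifies retinol for storage, lay below 1 TPM at 0.248 ± 0.107 TPM (SD, n = 4), and the retinol-binding protein receptor gene Stra6, at 0.714 to 1.46 TPM, was not called (edgeR adjusted p = 0.583). Of 9 genes of retinol oxidation and acid synthesis, 5 were tested and 3 lay above 1 TPM, where 75.7% of protein-coding genes tested did. Adh5, a glutathione-dependent formaldehyde dehydrogenase of most cells, was at 285 ± 9.01 TPM, Rdh10, the main retinol dehydrogenase of the embryo, at 3.66 ± 0.733 TPM and Aldh1a3, the retinaldehyde dehydrogenase of the lateral forebrain, at 2.56 ± 0.638 TPM. Aldh1a1 and Adh1 lay below it, Aldh1a1 at 0.130 ± 0.185 TPM. They had few counts in replicates 1 to 4: 0, 0, 6 and 16 for Aldh1a1 and 0, 4, 6 and 1 for Adh1. Of these 2 calls, 0 remained without replicate 3 and 1 without any other replicate. Aldh1a3 was thus called above 1 TPM where Aldh1a2 was not; their difference was not tested.

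Of 6 genes of retinaldehyde reduction back to retinol, 5 lay above 1 TPM, where 75.7% of protein-coding genes did. Dhrs3, which is induced by retinoic acid and partners Rdh10, was at 136, 148, 153 and 135 TPM, a mean of 143 ± 8.91 TPM (SD, n = 4). Dhrs4 was at 142 ± 4.79 TPM and Rdh13, a mitochondrial enzyme, at 57.8 ± 3.12 TPM. Of 3 further breakdown and delivery genes, Fabp5, which can hand retinoic acid to Ppard, was at 189 ± 10.9 TPM, Cyp26a1 lay below 1 TPM and Cyp26c1 had no count in any library. Cyp26b1 was therefore the one Cyp26 gene above 1 TPM.

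**Figure D4:**
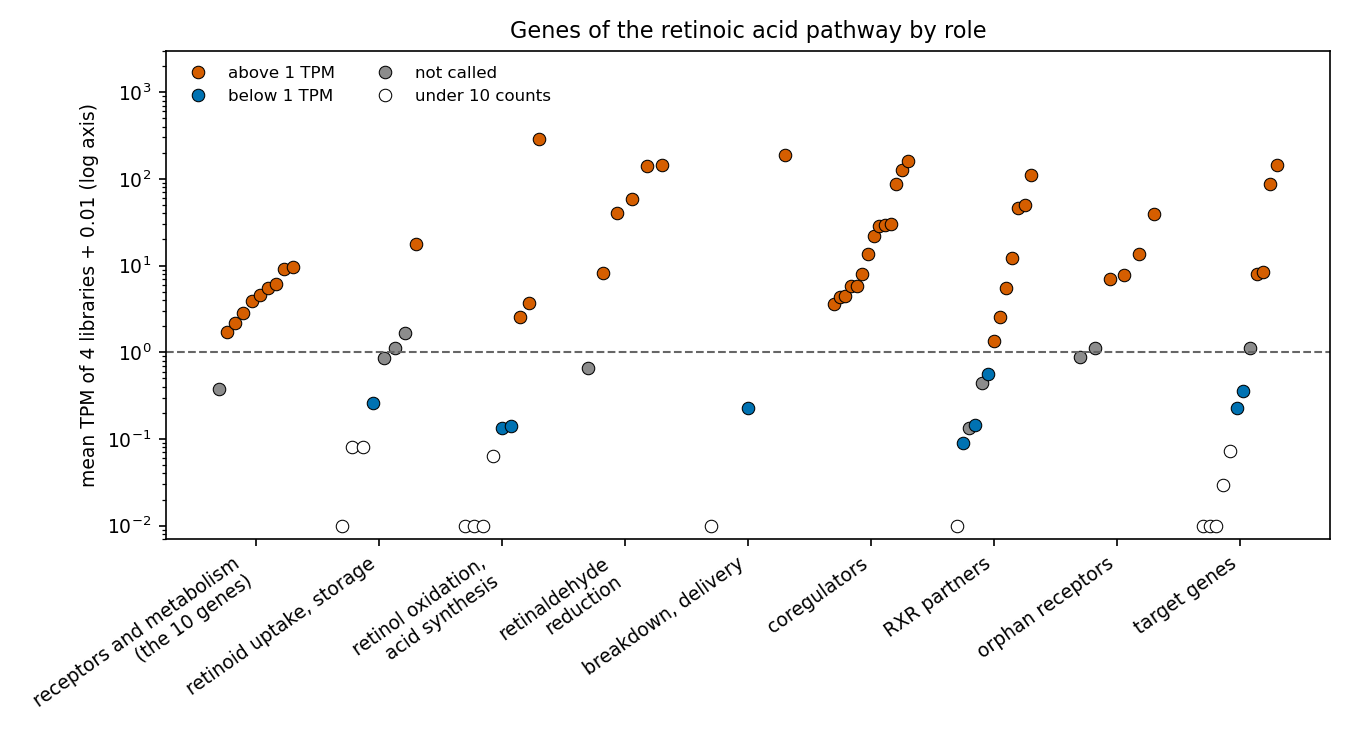
Mean TPM + 0.01 of the 4 libraries (log axis) for the 10 retinoic acid genes and the 8 lists of other pathway genes, 1 point per gene, coloured by its call against 1 TPM (dashed line); genes in more than 1 list are drawn in each. All 14 coregulators lie above the line, and 75.7% of protein-coding genes tested were called above 1 TPM. The synthesis and target lists spread from no count to over 100 TPM.

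Of all protein-coding genes tested, 75.7% lay above 1 TPM and 11.5% below it, the background for the counts that follow. All 14 coregulator genes lay above 1 TPM. Med1, the Mediator subunit that binds liganded receptors, was at 161 ± 17.4 TPM, the coactivator and acetyltransferase gene Crebbp at 125 ± 13.3 TPM and Hdac3, the deacetylase of the corepressor complex, at 88.2 ± 4.91 TPM (SD, n = 4). Among 13 receptors that pair with an RXR, 12 were tested, of which 7 lay above and 3 below. Nr4a1, also an immediate early gene, was at 111 ± 3.54 TPM, Thra, the thyroid hormone receptor alpha, at 49.6 ± 6.72 TPM and Nr1h2, an oxysterol receptor, at 46.7 ± 3.40 TPM, while Ppara, a fatty acid receptor, lay below at 0.553 ± 0.170 TPM. Of 6 orphan receptors that can bind the same repeats, 4 lay above: Nr2f1 and Nr2f2, the COUP-TF genes, at 39.0 ± 1.21 and 7.79 ± 1.34 TPM, Nr2c1 at 13.7 ± 2.57 TPM, and Nr2c2.

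Of 12 genes known as retinoic acid targets in mouse embryos or cells, 4 lay above 1 TPM, 2 below, and 5 had under 10 counts. Of all protein-coding genes tested, 75.7% lay above 1 TPM and 11.5% below it. Dhrs3, the homeobox gene Meis2 at 86.1 ± 9.20 TPM (SD, n = 4), Meis1 at 8.47 ± 1.42 TPM and Nrip1 were above. Cyp26a1 and the transglutaminase gene Tgm2 (0.349 ± 0.190 TPM, with 21.8% of its exonic bases opposite another gene) were below. The Cyp26a1 call was lost when any 1 replicate was left out, and the Tgm2 call was lost without replicate 3. The hindbrain and trunk targets Hoxb1 and Cdx1 had no count. These genes have other inputs as well, and with no untreated or deficient sample their levels do not measure retinoic acid signalling.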

How the data were processed

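RNA was measured in 4 libraries of 1 group. Per the labels' protocols, poly-dT primed cDNA was amplified after template switching and then sheared for Illumina sequencing. Per the submitters' processing notes, bcl2fastq 2.19.1, STAR 2.5.2b and build GRCm38 were used; the counter and strand setting were not given in the sources used here. As deposited, the counts are whole numbers per gene without normalisation. The deposited TPM table, in the authors' own scaling, holds 15648 genes and is scaled to the same total in every library.

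TPM was recomputed from counts with merged exon lengths of GENCODE M21 (GRCm38), which matched 45143 of 45706 identifiers; the other 563 were left out. Each gene with at least 10 counts was tested against 1 TPM with edgeR 4.0.16 (R 4.3.3), two-sided: the quasi-likelihood F test was written out for an intercept-only design, with the log count expected at 1 TPM as offset and Benjamini-Hochberg adjustment over all 20991 genes. Gene pairs were tested on within-library log2 ratios of TPM + 0.1 with limma 3.58.1, fitted over all genes for each gene set in the denominator and adjusted over that fit. With Crabp2, Cyp26b1, Rarg or Aldh1a2 in the denominator, limma gave every gene pair the same SE (0.392, 0.360, 0.411 and 0.782). The pair's own SD did not enter separately. That SD was 0.506 for Rarb over Rarg and 1.49 for Rarg over Aldh1a2 (log2, n = 4). Calls use an adjusted p of 0.05. The scripts were tested on simulated data. Poisson intervals (95%) and the 3-count floor cover counting error only, as the labels describe no molecular identifiers. Alternatives covered length, library size (TMM), filters, DESeq2 1.42.0, pseudocount and leaving out each library. Promoter sequences are RefSeq's (GRCm38.p6). Genes named are the 10, from each pathway list the 3 highest above and the highest below 1 TPM, and the 2 highest of each marker list; for brevity the last are named only where a list stands beside a result. Genes named beyond the rule in the pathway lists (Stra6, Adh1, Cyp26c1, Nr2c2, Nrip1, Hoxb1 and Cdx1) were chosen after their values were seen. Some genes that the rule would name are not reported here. The genes and lists were chosen with earlier results of these data known.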

Additional observations from a re-analysis of the deposited data

Results flagged for a closer look

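Of 36 levels and sums examined for a library far from the other 3, 3 stood out, and chance gives about 1 in 20. The summed RAR level was 11.6 TPM in replicate 1, against 10.7 to 10.8 TPM in the others; the gap is small in size and stands out because the other 3 libraries agree so closely. The summed erythroid marker level was 4203 TPM in replicate 2, against 2377 to 2683 TPM in the others. The summed level of genes typical of other organs was 42 TPM in replicate 4, against 46.2 to 46.9 TPM in the others, most of it from Krt10. None of the 10 retinoic acid genes stood out singly. The causes were not tested.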

How the results depend on the processing

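No paired analysis was possible because all libraries form 1 group. Of 119 alternative values of gene levels 111 kept direction and call, and of 187 of gene ratios 155 did. Every reversed level arose on the whole gene span, where log2 levels against 1 TPM were -0.23 for Rara, -2.51 for Rarb, -0.39 for Rarg, -0.13 for Rxra and -0.71 for Rxrg; 3 genes were then above and 3 below 1 TPM, against 9 and 0. By construction this scale divides by introns. Reversed log2 ratios on the span were -1.34 for Rarb over Rxrg, -1.77 for Rarb over Rara, -0.43 for Rxrg over Rara, -1.01 for Rara over Crabp2 and -1.58 for Rarb over Rarg. With no length correction (CPM), they were -2.17 for Crabp1 over Rxra, -0.68 for Rxrg over Rara and -1.56 for Crabp2 over Cyp26b1. With the longest transcript, they were -0.43 for Rxra over Rarb and -0.011 for Rxrg over Rara; without shared bases Rxra over Rarb was -0.53. With a library left out, Crabp2 over Cyp26b1 ran from -0.00998 (without replicate 2) to 0.553. The other pathway genes below 1 TPM numbered 17 on the span, 14 with no count filter, 3 with at least 40 counts and 2 to 5 with a library left out, against 8 as reported. Over all genes they numbered 5141 on the span, 6564 with no filter, 974 with at least 40 counts, 1571 among protein-coding genes and 1525 to 1707 with a library left out, against 2532. The pairs called different were 31 to 37 of 45 under every alternative. Summed RXR over summed RAR stayed positive, from 0.486 to 3.08 (log2). Aldh1a2, with 30 counts in all and a variation between libraries of 106% against 36.5% from counting, was not called against 1 TPM, although on the span it was called below it (log2 level -5.36; edgeR adjusted p = 0.00123).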
